A study of Mus musculus with 6 samples.

Results

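Chemokines are small secreted or membrane-bound proteins that guide migrating cells, and they are grouped by the spacing of their first cysteines into CC, CXC and CX3C ligands. They act through receptors that couple to inhibitory G proteins, while atypical receptors bind and remove or redistribute ligands without that signal. In the testis they are known for drawing immune cells into the interstitium, the tissue between the seminiferous tubules, and CXCL12 from Sertoli cells, the somatic cells of the tubule wall, for holding spermatogonial stem cells in their niche. The genes described here are the protein-coding rows of the count table whose symbol is that of a CC or CXC ligand, a CC or CXC receptor, an atypical receptor or Cx3cl1, with at least 10 counts over the 6 libraries. There were 33 of them among 54100 genes in the table. The symbols matched 58 protein-coding genes, of which 12 had 0 counts and 13 had 1 to 9 counts. The low-count filter of the test let through 17 of the 33.

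Bulk RNA-seq was made from cryosections of testis of 3 H3t deletion mice, which lack a histone H3 variant of the testis, and of 3 wild-type (WT) mice. The labels give the tissue and the genotype and no age, strain, treatment or extent of the deletion, and no agent is named for either group. The study concerns Leydig cells, which make testosterone, in testes in which spermatogenesis is disrupted. The comparison asks how chemokine transcripts differ between such testes and normal ones.

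Libraries held 8315960 to 8988520 counts in the deletion and 8037826 to 10702930 in WT, and values are given as CPM, the count scaled to library size with TMM factors. A single count, 1, was worth 0.0904 to 0.0953 CPM in the deletion, against 0.116 to 0.156 CPM in WT. H3f4, the current symbol of H3t, had 0 counts in each deletion library and 390, 571 and 356 counts in WT. Most of the transcriptome differed. At a false discovery rate of 0.05 in edgeR's quasi-likelihood test, 38.4% of the 17038 tested genes had higher and 46.1% had lower levels in the deletion, and 85.9% had CPM values that did not overlap between the groups. Spermatid markers summed to 93.5 to 180.0 CPM in the deletion, against 27296 to 29189 CPM in WT, and Sertoli markers to 4364 to 4486 CPM and 928 to 1038 CPM. In bulk tissue, fewer cells of a type and less RNA per cell cannot be told apart. Over all genes the log2 change had a median of -0.19 with TMM. It moved to -2.32 when libraries were scaled to an equal level of Sertoli markers, and to -2.71 when scaled to an equal level of macrophage markers. Both scalings, called Sertoli-level and macrophage-level from here on, ask whether a gene differed relative to the genes of those cells.

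Among the 17 tested members, 9 were higher in the deletion (52.9%, against 38.4% of all genes tested) and 6 were lower (35.3%, against 46.1%), and 2 were not called. For 15 of the 17 (88.2%) the groups were fully apart, close to the 85.9% of all genes. Among those higher were the ligands Cxcl12, Cxcl16, Cx3cl1, Ccl8 and Ccl24, the receptor Cxcr4 and the atypical receptors Ackr2 and Ackr3. Lower were the CC ligands Ccl22, Ccl25, Ccl27a and Ccl28 and the receptors Ccr6 and Cxcr5. Ccl6 and Ccr2 were not called. The median log2 change of the 17 was 1.66. That median and these counts come only from genes that passed the filter: 4 of them (Ccl24, Ccl8 and Ackr2 among them) passed through the deletion libraries alone and 3 (Ccl22, Ccr6 and Cxcr5) through the WT libraries alone, so these had to differ. By class, 5 of the 10 tested ligands were higher and 4 lower, all 4 of them CC ligands. Of the 9 members called higher with TMM, 5 stayed above 0 at Sertoli level and 4 at macrophage level. Upper-quartile scaling and no scaling factor move genes upwards instead, and there the 6 called lower stayed below 0 and 5 of them were called, Ccl25 being the exception.

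**Figure D1:**
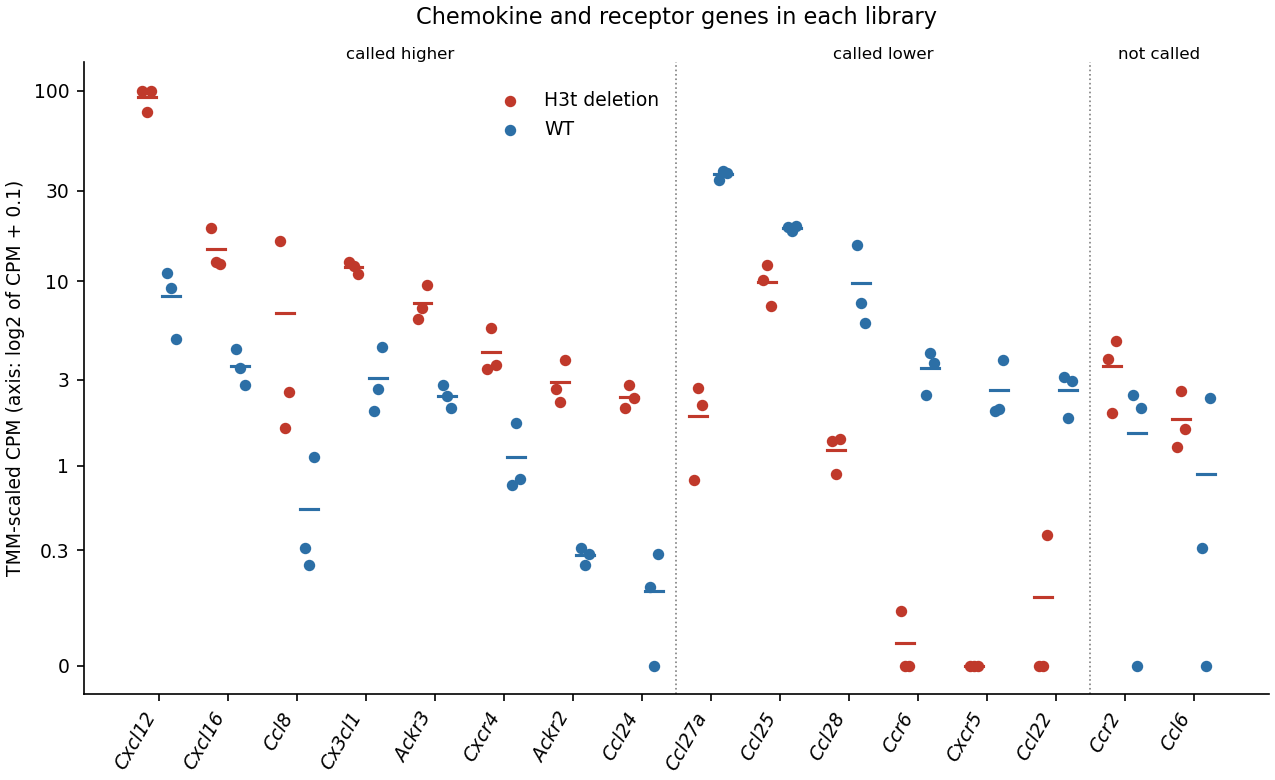
TMM-scaled CPM of tested members in each library (points) with the group mean (bars), the H3t deletion left of WT for each gene, on an axis of log2(CPM + 0.1). Of the genes shown, Ccr2 and Ccl6 overlap between the groups, and Cxcl12 is the most abundant member in the deletion libraries at 77.3 to 100 CPM.

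Cxcl12, the ligand of CXCR4 and of the scavenging receptor ACKR3, was the chemokine with the most counts in the deletion. It had 99.5, 77.3 and 100 CPM in the deletion libraries, against 11.1, 9.19 and 4.93 CPM in WT. All 3 deletion libraries were high and the groups lay far apart. The log2 change was 3.46 ± 0.20 (SE), with an adjusted p of 2.1e-10, and Cxcl12 was the only member called higher at both Sertoli level (1.33, adjusted p = 3.85e-05) and macrophage level (0.93, adjusted p = 0.000235). No scaling to Leydig or mesenchymal genes was run. All 9 Leydig markers were higher, by a median log2 change of 3.16, with sums of 3659 to 3897 CPM in the deletion, against 398 to 461 CPM in WT, as were 8 of 9 myoid and mesenchymal markers (median 1.63 over the 9). Over all genes tested, 38.4% were higher. The part of Leydig and mesenchymal cells in the level of Cxcl12 was not tested. The gene (ENSMUSG00000061353) lies on chromosome 6 of GRCm38, from 117168535 to 117181367 on the plus strand. Its RefSeq promoter on GRCm38.p6, 250 bases before to 50 after the annotated start, is shown because Cxcl12 had the most counts of any member; capitals mark the GC box letters GGGCGG on either strand, of which there are 5, some overlapping, with no TATA box letters TATAAA.
Cxcl12 (chr6:117168285-117168584, plus strand): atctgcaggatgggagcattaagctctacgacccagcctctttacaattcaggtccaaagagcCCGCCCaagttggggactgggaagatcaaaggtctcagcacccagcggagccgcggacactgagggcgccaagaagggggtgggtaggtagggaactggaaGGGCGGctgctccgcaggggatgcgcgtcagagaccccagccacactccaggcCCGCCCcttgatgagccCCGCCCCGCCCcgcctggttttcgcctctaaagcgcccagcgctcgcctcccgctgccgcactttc

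The receptor Cxcr4 and the atypical receptor Ackr3, both of which bind CXCL12, were also higher with TMM. Cxcr4, which signals chemotaxis in leukocytes and spermatogonial stem cells, had 3.41, 5.70 and 3.62 CPM in the deletion, against 0.778, 1.74 and 0.846 CPM in WT. Ackr3 had 6.36, 7.23 and 9.63 CPM in the deletion, against 2.80, 2.44 and 2.11 CPM in WT. For both genes the lowest deletion library stood above the highest WT library. The log2 change of Cxcr4 was 1.87 ± 0.46 (SE, adjusted p = 0.00139) and that of Ackr3 1.66 ± 0.32 (adjusted p = 0.000184). At Sertoli and macrophage level both signs turned, to -0.23 and -0.63 for Cxcr4 and to -0.47 and -0.84 for Ackr3, of which the last of these was called lower (adjusted p = 0.0383).

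Within a library a scaling factor enters only through the prior count, and there the margin of Cxcl12 over each of its receptors was wider in every deletion library than in any WT library. The log2 CPM of Cxcl12 minus that of Cxcr4 was 4.78, 3.71 and 4.70 in the deletion, against 3.50, 2.26 and 2.27 in WT, a difference of 1.72. Cxcl12 minus Ackr3 was 3.92, 3.38 and 3.35 in the deletion, against 1.90, 1.82 and 1.14 in WT, a difference of 1.93. Each gave p = 0.1 by an exact two-sided permutation test, which 3 against 3 samples cannot go below, and 0.2 when adjusted over the 4 ligand and receptor pairs compared, so neither passed.

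Cxcl16 and Cx3cl1 are the chemokines with a transmembrane stalk, from which proteases of the ADAM family release them. Cxcl16, the ligand of CXCR6, had 19.2, 12.7 and 12.3 CPM in the deletion, against 4.36, 3.49 and 2.82 CPM in WT, a log2 change of 2.05 ± 0.27 (SE, adjusted p = 4.56e-06). Cx3cl1, or fractalkine, which tethers monocytes and macrophages through CX3CR1, had 12.7, 12.0 and 11.0 CPM in the deletion, against 2.02, 2.67 and 4.51 CPM in WT, a log2 change of 1.95 ± 0.30 (adjusted p = 1.7e-05). All deletion libraries were above all WT libraries for both ligands. The log2 change of Cxcl16 was -0.07 at Sertoli level and -0.49 at macrophage level, and that of Cx3cl1 was -0.17 and -0.57, none of them called. Cxcl16 shares 552 exon bases, 18.3% of its own, with Zmynd15 on the opposite strand, and Zmynd15 was lower in the deletion (log2 change -5.04). Whether the counting used the strand is not given in the sources used here, and without it reads of the pair cannot be told apart.

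Of the receptors for those ligands, Cx3cr1 was higher with TMM and Cxcr6 had few counts. Cx3cr1, the fractalkine receptor of macrophages, which the symbol rule does not take in, had 14.2, 9.22 and 9.91 CPM in the deletion, against 4.67, 4.88 and 1.83 CPM in WT (log2 change 1.54, adjusted p = 0.000494; -0.58 at Sertoli level and -1.01 at macrophage level). Cx3cl1 minus Cx3cr1 within a library was -0.16, 0.37 and 0.14 in the deletion, against -1.12, -0.82 and 1.20 in WT, and the groups overlapped (difference 0.37, exact two-sided permutation p = 0.7). Cxcr6 had 1, 0 and 12 counts in the deletion, against 0, 0 and 3 counts in WT, too few to be tested, and in each group 1 library, the third, held most of them.

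Macrophage markers moved with these genes: all 14 on the list were higher in the deletion, against 38.4% of all genes tested; their sums were 597 to 701 CPM in the deletion, against 119 to 127 CPM in WT, and none was at 0. Sums of 9 blood endothelial markers, 7 of which were higher and 0 lower (median log2 change 1.43), ran from 89.6 to 103 CPM in the deletion and from 30.5 to 35.2 CPM in WT. Natural killer markers summed to 0.633 to 1.24 CPM in the deletion, against 0.282 to 0.814 CPM in WT, with Ncr1 and Klrd1 at 0 throughout. Neutrophil markers summed to 2.49, 2.53 and 0.477 CPM in the deletion, against 2.96, 2.56 and 2.82 CPM in WT. Of these, Mpo alone was tested, with 0 counts in each deletion library, against 19, 17 and 11 counts in WT (called lower, adjusted p = 1.31e-05). The whole neutrophil list held 27, 28 and 5 counts in the deletion, none of them from Mpo, against 19, 22 and 20 counts in WT, mostly from Mpo. Among the neutrophil markers Ly6g, S100a8, S100a9, Elane and Retnlg had 0 counts in all 6 libraries. The 6 dendritic cell markers summed to 20.8 to 21.4 CPM in the deletion, against 13.2 to 18.7 CPM in WT. The part of these cell types in the chemokine changes was not tested.

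Of the inflammatory CC ligands, Ccl8 and Ccl24 were higher in the deletion, Ccl8 mainly in 1 library, and Ccl12 and Ccl2 had more counts there. Ccl8, a monocyte chemoattractant protein that in mouse acts on CCR8, had 16.3, 1.63 and 2.57 CPM in the deletion, against 0.311, 0.233 and 1.13 CPM in WT. In counts these were 177, 18 and 27, against 2, 2 and 8. Deletion replicate 1 was far above the other two, which in turn were above every WT library. The log2 change was 3.61 ± 0.88 (SE, adjusted p = 0.00132), and 1.92 (adjusted p = 0.0178) without deletion replicate 1. At Sertoli and macrophage level Ccl8 was no longer called, at 1.54 (adjusted p = 0.108) and 1.0 (adjusted p = 0.188). Ccl8 minus Ccr2, a receptor described for human CCL8, was 2.01, -0.26 and -0.86 in the deletion, against -2.35, 1.04 and -0.79 in WT, and overlapped (difference 1.0, exact two-sided permutation p = 0.5).

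Ccl24, or eotaxin-2, a ligand of the eosinophil receptor CCR3, was even across the deletion libraries, with 2.12, 2.80 and 2.38 CPM, against 0.156, 0 and 0.282 CPM in WT. The deletion libraries held 79 counts and the WT libraries 3, a ratio of 18 in CPM with a 95% counting interval of 5.93 to 89.0. The adjusted p was 7.89e-05, and it was 0.0374 at Sertoli level and 0.0891 at macrophage level. Ccr3 itself had 1 count over the 6 libraries.

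Ccl12 and Ccl2, monocyte chemoattractants that act on CCR2, lie on chromosome 11 with Ccl8, Ccl12 next to it at 11.8 kb. Ccl12 had 29, 19 and 6 counts in the deletion, against 2, 1 and 0 counts in WT (ratio in CPM 12.3, 95% counting interval 3.99 to 61.4). Ccl2 had 21, 4 and 3 counts in the deletion, against 1, 0 and 0 counts in WT (ratio in CPM 19.1, 3.16 to 782). Deletion replicate 1 was again the highest, and the groups did not overlap for either gene. Neither passed the low-count filter; without it both were called higher (adjusted p = 0.000357 for Ccl12 and 0.00825 for Ccl2). Ccl7, of the same cluster, had 4 counts, all in the deletion, and Ccl11 had 0.

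Most other members with too few counts to be tested had more counts in the deletion. Cxcl13, the B cell attractant that binds CXCR5, had 17, 7 and 16 counts in the deletion, against 0, 0 and 1 counts in WT (ratio in CPM 27.3, 95% counting interval 4.63 to 1105). Ccr1, a receptor of monocytes and macrophages, had 20, 3 and 11 counts in the deletion, against 2, 2 and 0 counts in WT. Cxcl1, a neutrophil attractant, had 3, 9 and 6 counts in the deletion, against 0 in each WT library, at least 4.1-fold higher when 3 counts over the WT group are taken as the floor. The groups were apart for Cxcl13 and Cxcl1, and for Ccr1 they overlapped in CPM. Cxcr3, the receptor of interferon-induced CXC ligands, had 7, 3 and 6 counts in the deletion and 0 in each WT library, at least 3.64-fold higher. Ccl19, a ligand of CCR7, had 8, 4 and 0 counts in the deletion and 0 in WT, with 52.0% of its 50-base sequences shared with other genes.

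Members that differed less clearly were Cxcl9, with 24, 9 and 3 counts in the deletion, against 4, 6 and 5 counts in WT, and Ccl5, with 12, 4 and 0 counts, against 2, 1 and 2 counts. Ccr7, the receptor of CCL19, had 8, 0 and 0 counts in the deletion, against 4, 4 and 2 counts in WT. In all 3 genes deletion replicate 1 was the highest of the 6 libraries and another deletion library was below the highest WT library. Cxcl14, Ccl9 and Ackr4 summed to 31, 28 and 21 counts over the deletion libraries and to 10, 10 and 4 counts in WT. Ackr4 shares 8.9% of its exon bases with Acad11 on the opposite strand. Without the low-count filter, 6 of the 16 untested members were called higher (Ccl12, Ccl2, Ccr1, Cxcl1, Cxcl13 and Cxcr3), 2 were called lower (Ccl17 and Ccr4) and 8 were not called. In that fit 22.7% of 31460 genes were called higher and 31.8% lower.

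**Figure D2:**
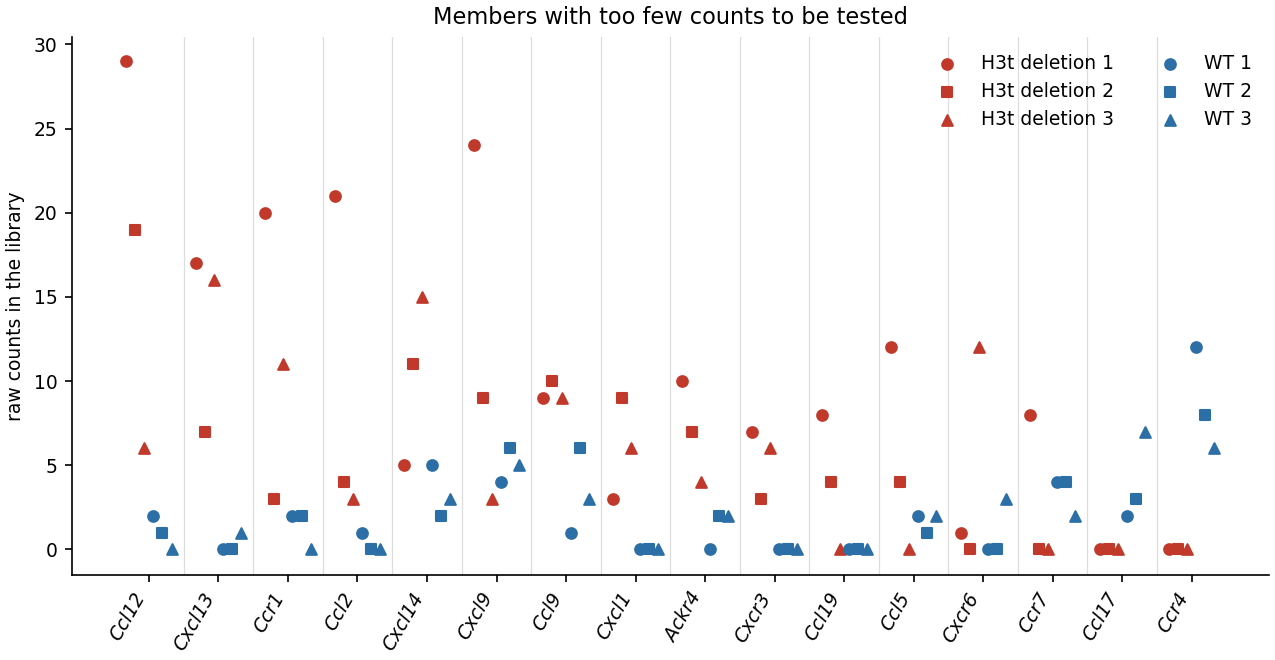
Raw counts of the 16 members with too few counts to be tested, by library, with the H3t deletion libraries left of the WT libraries for each gene. Deletion replicate 1 (circles) is the highest deletion library for 10 of the 14 genes with counts in the deletion, and Ccl17 and Ccr4 are at 0 in all 3 deletion libraries.

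Deletion replicate 1 was the highest deletion library for 10 of the 14 untested members that had counts there (71.4%), for 4 of 16 tested members (25%) and for 45.8% of all genes tested. T cell markers summed to 13.4, 4.07 and 6.20 CPM in the deletion, against 14.5, 13.7 and 11.7 CPM in WT. Most of the first deletion value was Cd4, which macrophages also express, at 7.74, 1.18 and 2.76 CPM in the deletion. Cd3e (0.461, 0.0904 and 1.14 CPM) and Cd2 (0.276, 0.362 and 0.953 CPM) were highest in deletion replicate 3. Lck (1.11, 1.09 and 0.286 CPM) was lowest there, and Cd8b1 (0.0921, 0.362 and 0.0953 CPM) was highest in deletion replicate 2. Cd3d was at 0 in all deletion libraries, and the untested markers are given only within the sum. The part of T cells in these counts was not tested.

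The atypical receptor Ackr2, which scavenges inflammatory CC ligands, was evenly higher in the deletion. It had 2.67, 2.26 and 3.81 CPM in the deletion, against 0.311, 0.233 and 0.282 CPM in WT, a log2 change of 3.36 ± 0.57 (SE, adjusted p = 5.59e-05). Every WT library held 2 counts of Ackr2, and the deletion libraries held 29, 25 and 40. At Sertoli and macrophage level Ackr2 was at 1.28 and 0.90 and not called (adjusted p = 0.0853 and 0.239).

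The 2 tested members that were not called overlapped between the groups. Ccr2, the receptor of CCL2 on inflammatory monocytes, had 3.87, 1.99 and 4.86 CPM in the deletion, against 2.49, 0 and 2.11 CPM in WT (log2 change 1.27 ± 0.69 SE, adjusted p = 0.0989). Ccl6, a CC ligand found in rodents, had 1.29, 2.62 and 1.62 CPM in the deletion, against 0.311, 0 and 2.40 CPM in WT (log2 change 1.06 ± 0.79, adjusted p = 0.223). WT replicate 3 alone was high for Ccl6, and without it the log2 change was 3.61 (adjusted p = 0.00484). Ccr2 was called higher with upper-quartile scaling (1.81, adjusted p = 0.022), with no scaling factor (1.91, adjusted p = 0.0158) and with no filter beyond 1 count (1.30, adjusted p = 0.0127). Without WT replicate 2, which had 0 counts of Ccr2, its log2 change was 0.62 (adjusted p = 0.265). At Sertoli and macrophage level both signs turned, to -0.88 and -1.23 for Ccr2 and to -1.08 and -1.41 for Ccl6, none of them called.

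**Figure D3:**
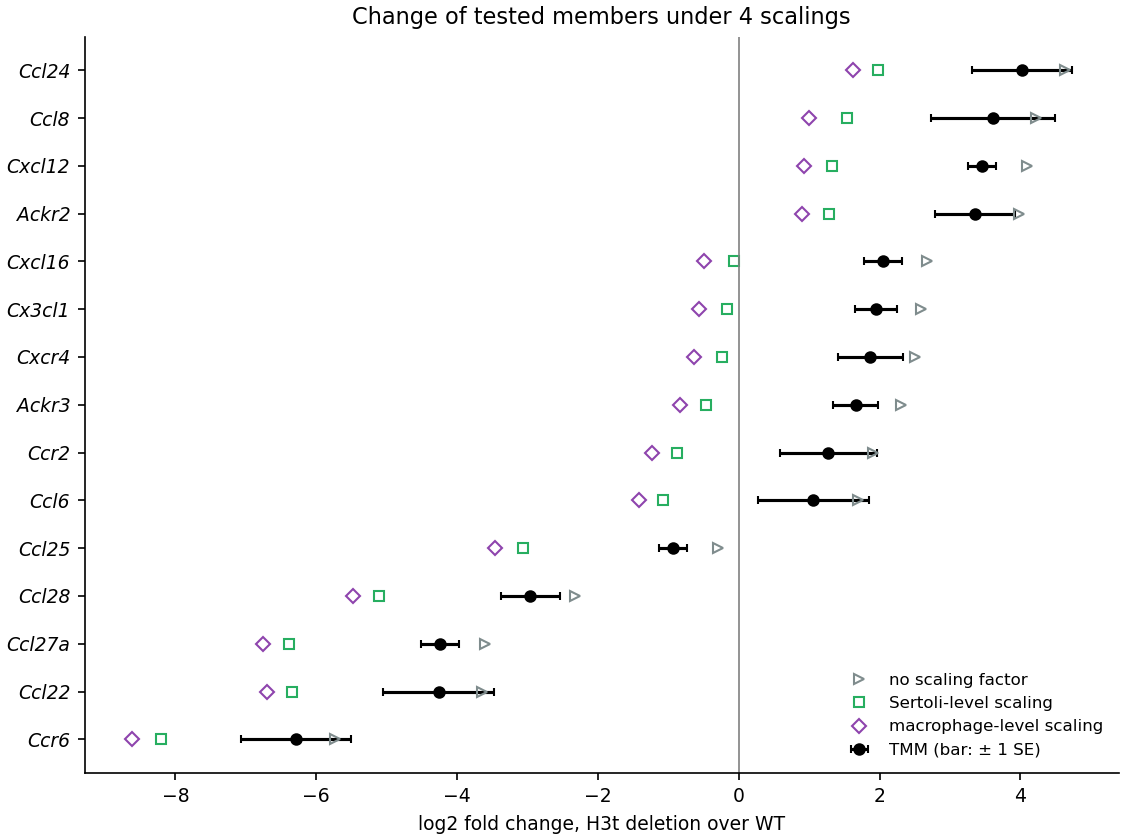
Log2 fold change of tested members, H3t deletion over WT, with TMM (black, bar ± 1 SE), no scaling factor (grey triangles), Sertoli-level scaling (green squares) and macrophage-level scaling (purple diamonds); Cxcr5, at 0 counts in the deletion, is left out. Cxcl16, Cx3cl1, Cxcr4 and Ackr3 lie above 0 with TMM and below 0 at Sertoli and macrophage level, while Ccl25, Ccl28, Ccl27a, Ccl22 and Ccr6 lie below 0 with TMM and with no scaling factor.

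The epithelial chemokines Ccl27a, Ccl28 and Ccl25 were lower in the deletion, and Ccl27a and Ccl25 had the highest mean levels by length of the ligands in WT. Ccl27a, whose secreted form attracts T cells to skin through CCR10 and which in mouse also gives a form without a signal peptide, had 0.829, 2.71 and 2.19 CPM in the deletion, against 34.2, 38.1 and 36.9 CPM in WT. All 3 deletion libraries were far below all 3 WT libraries. The log2 change was -4.24 ± 0.27 (SE, adjusted p = 5.96e-10). Of the 50-base sequences in the transcripts of Ccl27a, 45.0% occur in 4 other genes (Gm13306, Gm20878, Gm21586 and Gm21953), so its count is uncertain, and Gm13306 itself had 0 counts in the deletion and 1, 4 and 2 in WT. It shares 8 exon bases with Il11ra1 on the opposite strand, which was higher in the deletion (log2 change 1.41).

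Ccl27a (ENSMUSG00000073888, chromosome 4, 41769467 to 41774247, minus strand) has 19 transcripts in GENCODE M21. A pair of its RefSeq promoters is shown, since it had the highest level by length of any member in WT and its starts lie apart. Capitals mark GC box letters GGGCGG in the upstream promoter and a match to an NF-kB site in the downstream one; gene-level counts do not tell which start was used.
Ccl27a upstream (chr4:41774127-41774426, minus strand): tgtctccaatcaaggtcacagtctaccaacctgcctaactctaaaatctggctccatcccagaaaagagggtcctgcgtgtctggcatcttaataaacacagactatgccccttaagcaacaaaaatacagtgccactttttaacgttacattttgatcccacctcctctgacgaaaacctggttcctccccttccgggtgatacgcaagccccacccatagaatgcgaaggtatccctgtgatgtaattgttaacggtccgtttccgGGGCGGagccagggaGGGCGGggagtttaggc
Ccl27a downstream (chr4:41770163-41770462, minus strand): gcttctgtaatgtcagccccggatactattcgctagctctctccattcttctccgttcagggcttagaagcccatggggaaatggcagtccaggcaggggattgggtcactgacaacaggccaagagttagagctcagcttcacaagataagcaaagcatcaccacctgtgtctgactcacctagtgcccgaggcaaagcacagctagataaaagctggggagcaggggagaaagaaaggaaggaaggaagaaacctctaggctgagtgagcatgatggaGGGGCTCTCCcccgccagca

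Ccl28, a mucosal chemokine that binds CCR10 and CCR3, had 1.38, 0.904 and 1.43 CPM in the deletion, against 15.6, 7.67 and 6.06 CPM in WT. WT replicate 1 was well above the other WT libraries, and all WT libraries were above all deletion libraries (log2 change -2.96 ± 0.42 SE, adjusted p = 8.02e-06). Ccl25, which guides T cells in thymus and gut through CCR9, differed less, with 10.2, 12.2 and 7.44 CPM in the deletion, against 19.3, 18.5 and 19.5 CPM in WT (log2 change -0.93 ± 0.20, adjusted p = 0.000528). The groups of Ccl25 did not overlap, but its call was lost with upper-quartile scaling (-0.39, adjusted p = 0.0841) and with no scaling factor (-0.30, adjusted p = 0.185). Elavl1 on the opposite strand shares 2.7% of the exon bases of Ccl25 and had a log2 change of -0.79. Their receptors were scarce: Ccr10 had 5 counts, all in deletion replicate 1, and Ccr9 had 5, all in WT replicate 3.

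Transcripts of the CCR4 pathway, which draws regulatory and some helper T cells, were at or near 0 in the deletion. Ccl22, a CCR4 ligand of dendritic cells and macrophages, had 0, 0 and 0.381 CPM in the deletion, against 3.11, 1.86 and 2.96 CPM in WT, that is 4 counts against 57. Its log2 change was -4.26 ± 0.79 (SE, adjusted p = 0.000128). Deletion replicate 3 held all 4 counts, and without it Ccl22 was at least 18.8-fold lower when 3 counts over the other two deletion libraries are taken as the floor. Ccl17, the other CCR4 ligand, had 0 counts in each deletion library and 2, 3 and 7 counts in WT, at least 5.86-fold lower. Ccr4 itself had 0 counts in each deletion library and 12, 8 and 6 in WT, at least 12.7-fold lower. All 3 genes were at or near 0 in every deletion library and above 0 in every WT library. Ccl17 and Ccr4 did not pass the low-count filter; without it both were called lower (adjusted p = 0.0146 and 7.63e-05).

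Ccl22, Cx3cl1 and Ccl17 are neighbours among the chemokine genes of chromosome 8, in that order and all on the plus strand. Ccl22 spans 94745590 to 94751699, Cx3cl1 94772009 to 94782427 and Ccl17 94810453 to 94812036, with gaps of 20.3 and 28.0 kb. With TMM the middle gene was higher in the deletion, though not at Sertoli or macrophage level, while Ccl22 was lower and Ccl17 had 0 counts there. Their RefSeq promoters are given to show neighbours with opposite differences; capitals mark GC box letters GGGCGG and TATA box letters TATAAA, of which Cx3cl1 has 1 each and the flanking promoters none.
Ccl22 (chr8:94745434-94745733, plus strand): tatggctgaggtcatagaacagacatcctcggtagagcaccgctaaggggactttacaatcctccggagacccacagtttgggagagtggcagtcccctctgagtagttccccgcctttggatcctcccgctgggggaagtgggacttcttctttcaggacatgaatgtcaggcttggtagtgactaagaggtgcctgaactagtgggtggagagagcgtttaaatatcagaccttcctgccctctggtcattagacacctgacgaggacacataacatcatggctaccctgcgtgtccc
Cx3cl1 (chr8:94771930-94772229, plus strand): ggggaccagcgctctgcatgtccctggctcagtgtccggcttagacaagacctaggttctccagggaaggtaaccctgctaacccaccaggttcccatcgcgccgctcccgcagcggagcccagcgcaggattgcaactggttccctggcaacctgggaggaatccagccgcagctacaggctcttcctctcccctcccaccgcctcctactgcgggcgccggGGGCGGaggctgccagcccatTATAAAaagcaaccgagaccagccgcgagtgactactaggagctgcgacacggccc
Ccl17 (chr8:94810203-94810502, plus strand): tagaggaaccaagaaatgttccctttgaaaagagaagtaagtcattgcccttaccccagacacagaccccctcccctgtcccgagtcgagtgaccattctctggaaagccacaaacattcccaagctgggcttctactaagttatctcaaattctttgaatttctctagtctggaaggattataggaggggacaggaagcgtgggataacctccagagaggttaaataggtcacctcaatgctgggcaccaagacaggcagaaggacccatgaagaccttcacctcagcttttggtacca

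The receptors Ccr6 and Cxcr5 had at most 1 count over the 3 deletion libraries. Ccr6, the receptor of CCL20, known in human sperm for binding a beta-defensin, had 0.0921, 0 and 0 CPM in the deletion, against 2.49, 4.19 and 3.67 CPM in WT. That is 1 count against 78, a ratio of WT to deletion of 114 with a 95% counting interval of 19.9 to 4571 (adjusted p = 1.96e-06). The fitted log2 change was -6.29. Deletion replicate 1 held that count, and without it Ccr6 was at least 25.3-fold lower with the same floor. Cxcr5, the CXCL13 receptor of B cells and follicular helper T cells, had 0 counts in each deletion library, against 2.02, 2.09 and 3.81 CPM in WT (13, 18 and 27 counts), at least 28.3-fold lower (adjusted p = 7.99e-06). The deletion libraries were thus at 0 for Cxcr5 while its ligand Cxcl13 had 40 counts there and 1 in WT. Cxcr5 shares 3.3% of its exon bases with Bcl9l on the opposite strand, which was higher in the deletion (log2 change 2.17).

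Lymphocyte markers gave the following values beside these receptors. B cell markers summed to 0.814 to 2.03 CPM in the deletion, against 8.88 to 24.0 CPM in WT, nearly all of the WT sum being Pax5 at 23.7, 13.7 and 7.61 CPM. Pax5 held 152, 118 and 54 of the 154, 125 and 63 counts of the list in WT. In the deletion Pax5 held 6, 2 and 4 of 22, 9 and 13 counts, so the lower sum lay in Pax5. Of 6 tested T cell markers 1 was higher and 4 were lower, against 38.4% and 46.1% of all genes tested. Cd3d was at 0 in the deletion. Spermatocyte markers summed to 314 to 357 CPM in the deletion, against 4372 to 4719 CPM in WT. Which cells gave the WT counts of Ccr6, Cxcr5, Ccl22 and Ccr4 was not tested.

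The make-up of the chemokine transcripts differed between the groups when levels were set on a length scale, as CPM per kb of exon. In the deletion the highest mean levels were 13.4 ± 16.1 for Ccl8 (31.9, 3.19 and 5.04 in the 3 libraries), 11.3 ± 1.58 for Cxcl12, 4.87 ± 1.28 for Cxcl16, 3.08 ± 1.96 for Ccl12 and 3.03 ± 0.224 CPM per kb for Cx3cl1 (SD, n = 3). Ccl8 and Cxcl12 did not differ beyond their spread in that order, whereas Cxcl12 stood above Cxcl16 in every deletion library. In WT they were 15.3 ± 0.838 for Ccl27a, 2.56 ± 0.0699 for Ccl25, 2.02 ± 1.05 for Ccl28 and 1.49 ± 0.374 CPM per kb for Ccr6, and Cxcl12 was at 1.03 ± 0.383 (SD, n = 3). Ccl27a stood clear of the rest. The place of Ccl28 rests on WT replicate 1, with 3.21, 1.58 and 1.25 CPM per kb in the WT libraries. Its mean lay within 1 SD of Ccl25, Ccr6, Cxcl16 (1.18), Ccl22 (1.14), Ccl8 (1.09), Ccl17 (1.07) and Cxcl12. In WT replicate 3, Ccl8, Ccl17, Ccl6 and Ccl22 were above it at 2.21, 1.92, 1.34 and 1.27 CPM per kb.

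The 20 ligands summed to 69.5, 32.9 and 33.3 CPM per kb in the deletion, against 28.1, 25.9 and 30 CPM per kb in WT. Ccl8 was 45.9% of the sum in deletion replicate 1, Cxcl12 was 28.8% and 36.6% in replicates 2 and 3, and Ccl27a was 51.3%, 61.9% and 51.6% in WT. In CPM without the length scale, Cxcl12 led the ligands in each deletion library (56.8% to 68.1%). The 10 conventional receptors summed to 4.34, 4.17 and 4.32 CPM per kb in the deletion, against 3.56, 4.12 and 4.17 CPM per kb in WT. These sums were close, but the leading gene on this scale was Cxcr4 in each deletion library (43.3% to 75.6%) and Ccr6 in each WT library (30.1% to 43.7%). In CPM without the length scale, the leading receptor was Ccr2 in deletion replicates 1 and 3 and Cxcr4 in deletion replicate 2. There Ccr6 led in WT replicate 2 and Cxcr5 in WT replicate 3, and Ccr2 and Ccr6 were level in WT replicate 1 at 2.49 CPM. The 3 atypical receptors summed to 2.92, 3.0 and 4.17 CPM per kb in the deletion, against 0.937, 0.847 and 0.775 CPM per kb in WT, with Ackr3 leading in all 6 libraries.

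**Figure D4:**
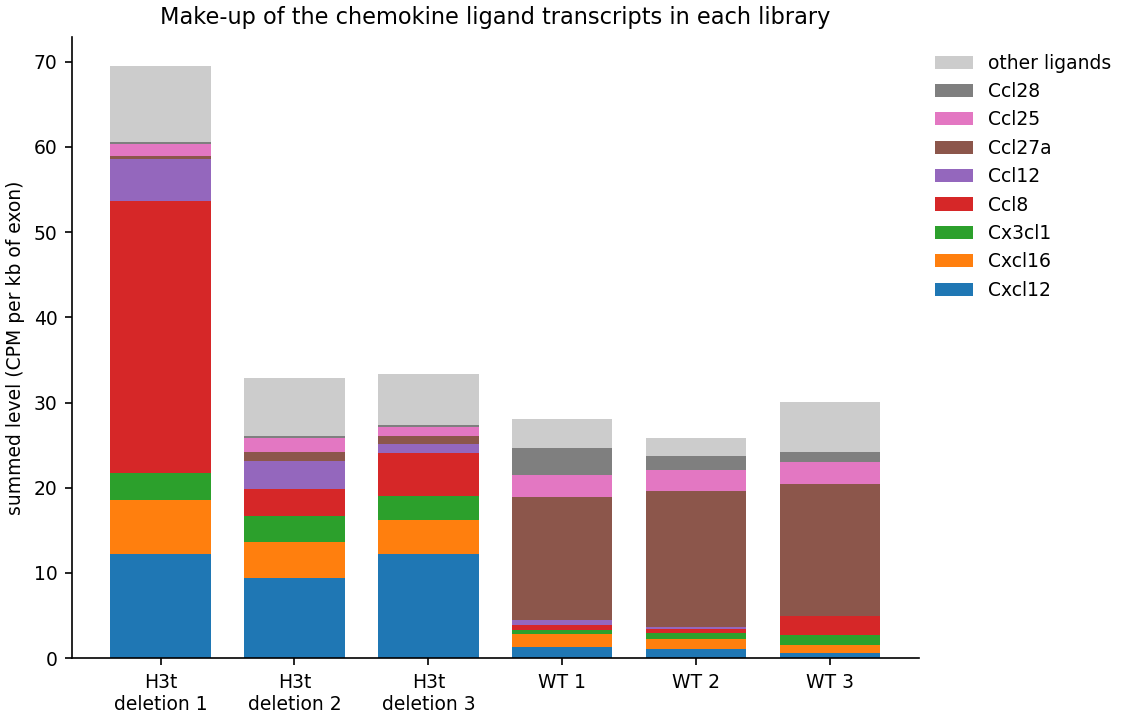
Summed level of the 20 chemokine ligands in CPM per kb of exon, stacked by gene, with the H3t deletion libraries left of the WT libraries. Ccl27a makes up 51.3% to 61.9% of the WT bars, and Cxcl12 is the largest named share in deletion replicates 2 and 3 and Ccl8 in deletion replicate 1.

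Promoters of 26 of the 33 members were in the RefSeq table, 30 entries in all. TATA box letters were in those of 4 of the 6 members called higher that had an entry (Ccl8, Cx3cl1, Cxcr4 and Ackr3) and 1 of the 5 called lower (Ccl25), against 15.7% of all genes. GC box letters were in 4 of 6 (Cx3cl1, Cxcl12, Cxcr4 and Ackr3) and 2 of 5 (Ccl27a and Ccl28), against 38.2% of all genes. NF-kB sites were in 1 of 6 (Ackr2) and 2 of 5 (Ccl27a and Ccr6), against 9.55%, and the interferon-stimulated response element GAAANNGAAA was in none of these 11, against 3.99%. Both strands were searched. The 4 motifs shown come from 14 that were looked at, and these counts are descriptions with no test.

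Other genes of the chemokine system were read from the same fit. Of 5 tested genes among 10 further chemokine and chemerin genes, 3 were higher and 2 lower, against 38.4% and 46.1% of all genes tested. Rarres2, which encodes chemerin, averaged 9.18 ± 0.934 CPM in the deletion, against 2.66 ± 0.231 CPM in WT (SD, n = 3, log2 change 1.78, -0.34 at Sertoli level and -0.74 at macrophage level), and its receptor gene Cmklr1 6.54 ± 1.70 CPM in the deletion, against 31.6 ± 4.79 CPM in WT (log2 change -2.27, adjusted p = 7e-08). Ligand and receptor genes of chemerin were thus on opposite sides with TMM. Of 8 tested members of the chemokine-like factor family, membrane proteins named for a chemokine-like founder, 5 were higher and 3 lower, against 38.4% and 46.1% of all genes tested. Cmtm2b averaged 0.346 ± 0.364 CPM in the deletion, against 187 ± 4.28 CPM in WT (SD, n = 3, log2 change -9.05) and Cklf had a log2 change of -2.75. Cmtm6, which stabilises PD-L1 at the cell surface, had 1.57 with TMM and -0.56 and -0.94 at Sertoli and macrophage level.

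Genes downstream of the receptors were mostly higher with TMM. Of 37 tested genes of receptor signalling 28 were higher and 6 lower, with a median log2 change of 1.22. The values over all genes were 38.4%, 46.1% and -0.19, and TMM counts of the other lists here are read against the same shares. Gnai2, the main inhibitory G protein subunit of leukocytes, had a log2 change of 1.64 and Gnb1 one of 0.94, and both turned negative at Sertoli level (-0.48 and -1.19) and macrophage level (-0.88 and -1.58). Rock1, a kinase of cell contraction, was at -0.27 (adjusted p = 0.012), 0.27 with upper-quartile scaling and 0.37 with no scaling factor. At Sertoli level 1 of the 37 was higher and 24 lower, where 723 of all 17038 genes tested were higher and 12917 lower.

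Of 25 tested genes of the NF-kB pathway and its inducers, which drive many inflammatory chemokines, 18 were higher and 2 lower (median 1.63). The lower count was 4 without deletion replicate 1 and 1 without deletion replicate 2 or 3. It was also 4 with median-of-ratios scaling, 1 with upper-quartile scaling or no scaling factor, and 5 with DESeq2. Rela and Chuk had log2 changes of 0.87 and 1.47, and of -1.27 and -0.67 at Sertoli level. The inhibitors Nfkbib and Nfkbia went opposite ways with TMM, at -2.46 and 2.21. Nfkbie, Nfkbiz and Tnfaip3 were not called, at 0.6, -0.54 and -0.04. Of 21 tested genes that cut chemokines or anchor them to heparan sulfate, 18 were higher and 2 lower (median 2.02). Here the lower count was 0 without deletion replicate 2 or 3 and 1 without WT replicate 1 or 3. It was also 0 with upper-quartile scaling and with no scaling factor. Adam10, a protease that sheds CX3CL1 and CXCL16, averaged 224 ± 29.6 CPM in the deletion, against 48.3 ± 5.78 CPM in WT (SD, n = 3, log2 change 2.21; 0.09 at Sertoli and -0.31 at macrophage level). Sdc4, a heparan sulfate carrier, and Sulf2, which removes sulfate groups from it, had log2 changes of 2.47 and 2.13, and of -0.04 and -0.38 at macrophage level. At Sertoli level the NF-kB list had 4 higher and 14 lower and the cleavage and anchoring list 4 and 9. Of all 17038 genes tested, 723 were higher and 12917 lower at that level.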

How the data were processed

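Bulk RNA-seq was made from 3 H3t deletion and 3 WT mouse testes. RNA was taken from cryosections, and libraries came from a kit that keeps strand, per the labels. The deposited values are raw counts of reads per Ensembl gene. The authors made them with Trim Galore, HISAT2 on GRCm38 and featureCounts, per the submitters' processing notes; anything on tool versions, gene annotation or strand in the counting is not given in the sources used here. GENCODE M21 held all 54100 genes on the same chromosomes and gave coordinates, exon lengths and 50-mers shared between genes. The number of unused columns of per-sample values was 0. Groups follow the labelled genotype, and replicates are numbered in accession order. The labels give a mouse number per sample and nothing more on its origin, so the p-values reflect how much these samples vary, part of which may be technical.

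The whole table was tested with edgeR 4.0.16 in R 4.3.3: filterByExpr, TMM, the quasi-likelihood test and Benjamini-Hochberg adjustment over 17038 genes at a false discovery rate of 0.05. CPM values are TMM-scaled. Differences between ligand and receptor within a library use log2 CPM with a prior count of 2. A group at 0 was set to 3 counts over its libraries to give a bound, written as at least N-fold; with 1 to 3 counts the ratio has an exact 95% interval. Both cover counting error only. The steps were tested on simulated data, for edgeR on counts in which few genes changed. Most genes differ here, so that run cannot show how well the scaling holds.

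Members and gene lists were chosen with earlier results of these data known. Members with 10 or more counts are described; 1 result is not reported here, though counts over the members include it. From each list up to 3 called genes with the highest mean CPM could be named. Genes that share exons or sequence with a member, and ligands or receptors under 10 counts, were added after their values were seen. So were further T cell markers and regulators of NF-kB. Alternatives were other scalings, filters, thresholds and member rules, DESeq2 1.42.0 and each library left out. Spatial data were not analysed here.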

Additional observations from a re-analysis of the deposited data

How the results depend on the processing

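The 9 higher and 6 lower calls became 9 and 6 with median-of-ratios scaling, 10 and 5 with upper-quartile scaling and with no scaling factor, 2 and 6 at Sertoli level, 1 and 7 at macrophage level, and 16 and 8 with no filter beyond 1 count. Over all 17038 genes tested, the higher and lower calls were 6542 and 7861 with TMM and 6023 and 8229 with median-of-ratios scaling. They were 8111 and 6609 with upper-quartile scaling and 8378 and 6425 with no scaling factor. At Sertoli level they were 723 and 12917, and at macrophage level 312 and 14043. With no filter beyond 1 count they were 7141 and 10004 of 31460 genes. DESeq2, run without that low-count filter, gave 13 and 8. Without 1 library each, with the filter applied anew, 9 to 12 were higher and 6 lower. The members tested can differ from those of the main fit in these runs, with DESeq2 and with no filter. At Sertoli and macrophage level the log2 changes that turned sign were -0.07 and -0.49 for Cxcl16, -0.17 and -0.57 for Cx3cl1, -0.23 and -0.63 for Cxcr4, -0.47 and -0.84 for Ackr3, -1.08 and -1.41 for Ccl6, -0.88 and -1.23 for Ccr2, -0.58 and -1.01 for Cx3cr1, -0.34 and -0.74 for Rarres2, -0.56 and -0.94 for Cmtm6, -0.48 and -0.88 for Gnai2, -1.19 and -1.58 for Gnb1, -1.27 and -1.65 for Rela, -0.67 and -1.05 for Chuk, and -0.0005 and -0.38 for Sulf2; at macrophage level alone they were -0.31 for Adam10 and -0.04 for Sdc4. Both scalings move every gene by 2.13 to 2.53 in the median, by construction. Rock1 turned to 0.27 with upper-quartile scaling and 0.37 with no scaling factor; the cause was not tested. Leaving out 1 library gave 1.51 to 2.13 for Cxcl12 minus Cxcr4, 1.69 to 2.07 for Cxcl12 minus Ackr3, 0.14 to 1.87 for Ccl8 minus Ccr2 and -0.07 to 1.09 for Cx3cl1 minus Cx3cr1, which turned sign without WT replicate 1. Prior counts of 0.5 and 5 left these directions as they were. No paired analysis was possible because the labels give the groups no shared replicate numbers. Depth limits the 16 untested members, for which 1 count is worth 0.0904 to 0.156 CPM.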

Other observations

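The members that were not analysed for low counts had at most 6 counts over the 6 libraries. Of the 25, the 12 with 0 counts were Ccl11, Ccl20, Ccl21a, Ccl21b, Ccl21d, Ccl27b, Ccr1l1, Cxcl3, Cxcl15, Cxcl17, Cxcr1 and Cxcr2. Cxcr1 and Cxcr2 are the receptors through which neutrophils follow CXC ligands such as CXCL1. The other 13 had 1 to 6 counts each: Ccl3, Ccl4, Ccl7, Ccr10, Cxcl2, Cxcl5 and Cxcl10 had theirs in the deletion libraries alone, Ccl1, Ccl26, Ccr3, Ccr8 and Ccr9 in the WT libraries alone, and Ackr1 had 1 in each group. The symbols also matched 3 rows of other biotypes, Cxcl11, Ccl19-ps1 and Ccl19-ps3, which were left out as not protein-coding.

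Members shared chromosomal clusters. Of the 58 matched genes 14 lie on chromosome 11, with 8 of them analysed, 12 on chromosome 9, with 8 analysed, and 10 on chromosome 5, with 4 analysed.

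Among the 14 promoter motifs looked at, the nuclear receptor half-site TGACCT was in 0 of the 6 members called higher with a promoter and in 4 of the 5 called lower, against 18.1% of all genes. This was picked after its counts were seen and was not tested.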
